A study of Sus scrofa with 40 samples.

Results

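The genes described here are the collagens and the fibroblast matrix genes of the pig kidney array. A row of the array files was taken where it was not a control spot and its gene name was either a collagen chain (COL, a number, A, a number) or 1 of 15 further names, namely DCN, LUM, DPT, SPARC, FN1, FBN1, POSTN, BGN, LOX, TIMP1, TIMP3, MMP2, MMP9, PDGFRA and PDGFRB. This gave 93 probes of 43603, which belong to 35 identifiers of 35955 and to 27 genes. The members are 15 collagen genes with 20 identifiers and 12 other genes with 15 identifiers. TIMP3, PDGFRA and PDGFRB had no row under these names, and COL1A1, a marker of fibroblasts, had none either.

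The samples were taken from kidneys of Large White pigs aged 3 months, as brother pigs, and each array carries the RNA of 1 sample of cortex (C) or of corticomedullary junction (CMJ). Control kidneys (Ctl) were frozen upon removal, warm ischemia kidneys (WI) were kept clamped for 60 min at 37 °C, and the cold-stored kidneys had the same WI and were then kept at 4 °C in University of Wisconsin solution, a preservation fluid for grafts, for 6 h (the group WI+CS6h) or for 24 h (the group WI+CS24h). Each of the 8 combinations of treatment and tissue has 5 arrays, which gives 40 arrays. By the treatment text of the labels, the same 5 kidneys were sampled at 6 h and at 24 h, so that the arrays come from 15 kidneys, and no sample was taken after reperfusion. The comparisons ask how warm ischemia, alone or followed by cold storage as in grafts from donors deceased after circulatory death, changes transcript levels in each tissue.

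Collagens are triple helices of 3 chains with a glycine at regular spacing. Types I, V and XI form fibrils, type IV and type VII belong to or anchor the basement membrane, type VI forms beaded filaments around cells, and types IX and XIV sit on fibril surfaces. Small proteoglycans such as decorin and biglycan bind these fibrils, lysyl oxidase crosslinks them, and matrix metalloproteinases and their inhibitors turn them over. In the kidney, interstitial fibroblasts, pericytes and the vessel wall are the known main producers of the fibrillar matrix, and its excess is the hallmark of graft fibrosis.

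The probes themselves show what is measured. Glycine is coded by GGN, so that a stretch of helix carries GG at a spacing of 9 bases. The first 4 probes below are shown because they lie in such a repeat, with the GGN triplets at that spacing in capitals. The last 2, without capitals, are the COL6A2 probe, which carries the clearest change with WI, and 1 of the 7 SPARC probes, the gene with the lowest adjusted p of the members between the label numbers of cold-stored samples; each is spotted under 2 probe names. All are given 5′ to 3′ as the array files print them, and no genome build is given for them in the sources used here, so that no position is stated.
COL11A1: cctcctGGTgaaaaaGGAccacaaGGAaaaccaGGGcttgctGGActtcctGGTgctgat
COL17A1: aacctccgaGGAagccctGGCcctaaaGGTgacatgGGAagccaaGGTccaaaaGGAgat
COL7A1: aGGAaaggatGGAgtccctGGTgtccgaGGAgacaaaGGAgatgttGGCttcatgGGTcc
COL8A1: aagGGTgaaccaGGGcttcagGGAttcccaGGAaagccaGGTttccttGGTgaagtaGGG
COL6A2: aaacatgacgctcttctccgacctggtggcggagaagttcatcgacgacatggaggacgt
SPARC: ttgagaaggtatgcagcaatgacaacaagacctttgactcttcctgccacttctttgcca
At least 5 GGN triplets at this spacing were found in 5 of the 51 collagen probes (9.80%) and in 12 of all 43603 probes (0.0275%).

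Levels are given as log2 intensity after quantile normalization over all 40 arrays, where a value near 0 is at background and differences are log2 fold changes. On an array, 57.0% to 69.9% of the probes were well above background by the scanner software's own flag. Of the 35 members, 29 were well above background on all 40 arrays, with DCN, FN1, SPARC and COL1A2 among them, and none had a saturated probe. COL9A2 and COL11A2, which are chains of cartilage collagens, were not well above background on any array. The remaining 4 were so on part of the arrays: COL11A1 on 36, COL8A1 ENSSSCT00000013101 on 35, COL8A1 ENSSSCT00000013104 on 32 and COL10A1 on 31. Of the fibroblast markers COL1A1, COL1A2 and DCN, the last 2 were thus present in both tissues under all treatments. In control kidneys SLC12A1, the salt transporter of the thick ascending limb, was 1.24 higher in CMJ than in C (log2, SE 0.25, limma adjusted p = 0.0119), which is a check of the tissue labels. Of the 7 identifiers in the list of loop, distal tubule and collecting duct genes, it alone passed. UPK3A, of the urothelium list, was 2.14 higher in CMJ in the same comparison (limma adjusted p = 8.37e-05).

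A difference is called here where limma's adjusted p over all identifiers was under 0.05 and its log2 fold change at least 0.5 in size, which are the thresholds of the study. In control kidneys, CMJ and C differed in 0.312% of all identifiers (112 of 35934) and in 0 of the 35 members. The members were 0.13 higher in CMJ at the median. An unadjusted p under 0.05 was found for 4 of them and for 6.09% of all identifiers, and both identifiers of FN1, fibronectin, were among these, with 0.71 and 0.73 (adjusted p = 0.46 and 0.45).

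After WI in CMJ, the type VI collagen chain COL6A2 and the proteoglycan biglycan (BGN) rose, and most other matrix genes had higher values without passing the test. Thus 2 of 35 members were called higher and 0 lower, while 0.687% of all identifiers were called (247 of 35938), 0.370% higher and 0.317% lower. An unadjusted p under 0.05 was found for 14 members, all higher, and for 12.3% of all identifiers. The log2 fold change was positive in 33 of 35 members, with a median of 0.40, whereas 47.2% of all identifiers had a positive one and their median was -0.01. The largest was 1.67, for COL8A1, and the lowest was -0.11, for COL7A1.

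The single arrays were not alike in this. Relative to the mean of the 5 Ctl-CMJ arrays, the median over the 35 members was 0.33, 0.36, 0.54, -0.01 and 0.86 on WI-CMJ arrays 1 to 5, in this order. On the Ctl-CMJ arrays themselves it was 0.03, -0.16, -0.34, 0.08 and 0.40. WI-CMJ arrays 3 and 5 lay above all controls, array 4 lay within their range, and arrays 1 and 2 lay just under the highest control. In C, the same median stayed between -0.16 and 0.33 on all 20 arrays.

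**Figure D1:**
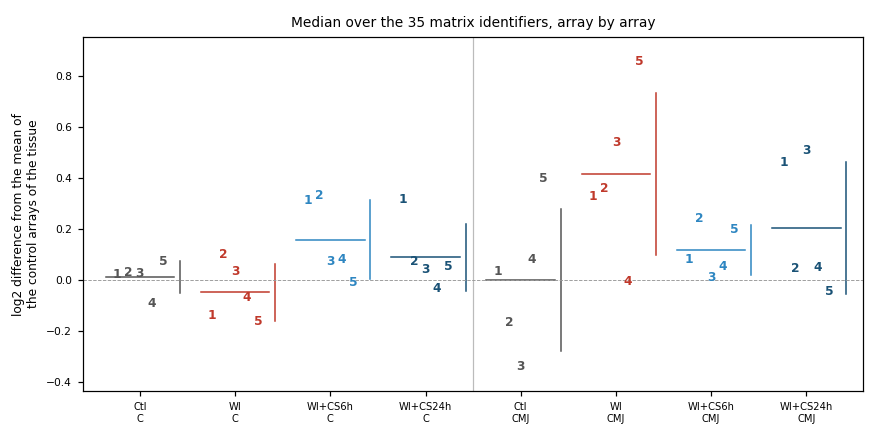
Median over the 35 members of the log2 difference from the mean of the 5 control arrays of the same tissue, each array drawn as its number, with the group mean (horizontal line) and SD (vertical line), cortex and corticomedullary junction set apart and the 4 treatments along the x axis. WI-CMJ array 5 is the highest at 0.86 and array 4 of the same group lies at -0.01.

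COL6A2 codes for a chain of type VI collagen, the beaded filament collagen of the cell surroundings. It was 4.01, 3.69, 3.54, 4.04 and 4.59 on the Ctl-CMJ arrays and 4.50, 5.55, 5.72, 5.12 and 6.23 on the WI-CMJ arrays. The groups overlap only by WI array 1 and Ctl array 5. The difference was 1.45 (SE 0.26, n = 5 and 5, 2.73-fold, limma adjusted p = 0.0131). It stayed past both thresholds when any 1 of the 10 arrays was left out, between 1.25 and 1.68. The arrays were scanned on 2 days, and the difference was 0.99 on day 1 (3 WI and 2 Ctl arrays) and 2.06 on day 2 (2 WI and 3 Ctl arrays). The WI-CMJ arrays of day 2 are numbers 3 and 5, which both carry fat markers (described with ADIPOQ), and of those of day 1 array 1 carries them and arrays 2 and 4 do not. In the day 2 values of this group WI and the markers cannot be told apart. The call was lost when only these 10 arrays were fitted (adjusted p = 0.0874) and with another background correction, normexp, where the difference was 0.27 (adjusted p = 0.0262).

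BGN codes for biglycan, a small proteoglycan that binds collagen fibrils. It was 5.09, 4.79, 4.15, 5.56 and 5.75 on the Ctl-CMJ arrays and 5.54, 6.43, 6.61, 6.20 and 7.07 on the WI-CMJ arrays. WI arrays 2 to 5 exceeded every control, and array 1 lay under the 2 highest controls. The difference was 1.30 (SE 0.29, 2.46-fold, adjusted p = 0.0403). This call was lost when 8 of the 10 arrays were left out 1 at a time, with differences between 1.07 and 1.51, and with 75th percentile scaling (1.26, adjusted p = 0.0825). It was also lost with normexp, where the difference was 0.34, and with only these 10 arrays fitted (adjusted p = 0.13). On scan days 1 and 2 the BGN difference was 1.11 and 1.69.

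**Figure D2:**
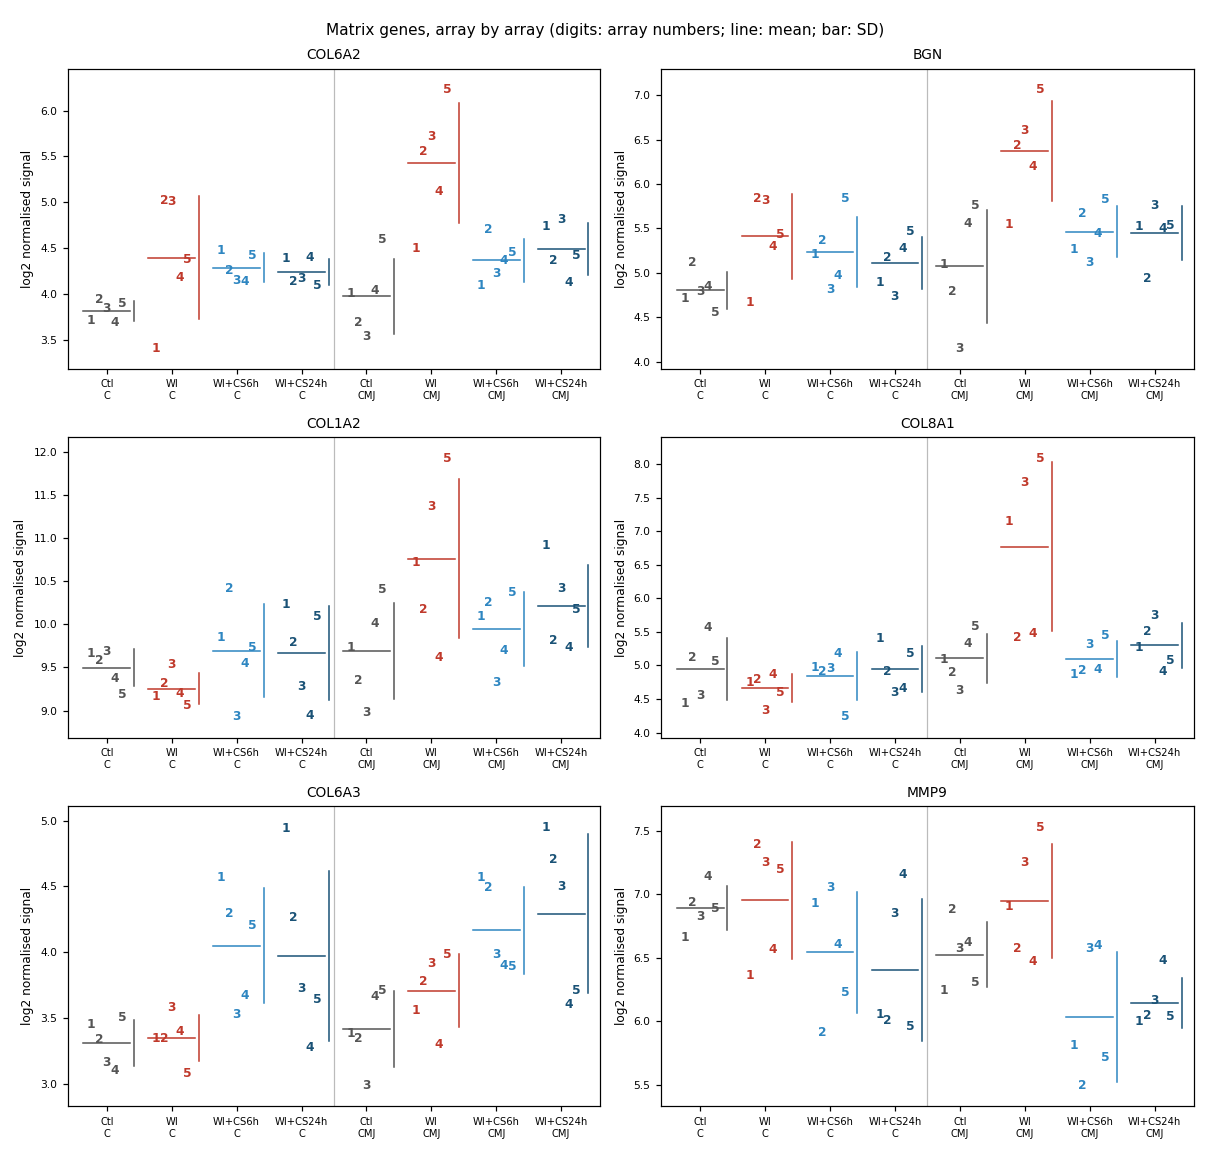
Log2 intensity of COL6A2, BGN, COL1A2, COL8A1, COL6A3 and MMP9 in each of the 8 groups, 1 point per array with the group mean and SD, each panel on its own y axis. In WI-CMJ, COL8A1 splits into 3 arrays at 7.14 to 8.09 and 2 arrays at 5.41 and 5.48, whereas COL6A2 and BGN do not split.

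No other member among the network or filament collagens passed the test. A further 20 identifiers, named as collagen chains only in their description, lie outside the rule and are not described here. COL8A1, the short-chain collagen of vessel walls and endothelium, has 3 identifiers on the array. The brightest, EV864657, was 7.14, 5.41, 7.73, 5.48 and 8.09 on the WI-CMJ arrays against 4.63 to 5.58 on the Ctl-CMJ arrays. Arrays 1, 3 and 5 were thus far above the controls and arrays 2 and 4 were among them. The mean difference of 1.67 (SE 0.41) gave an adjusted p of 0.0659. ENSSSCT00000013104 was high on the same 3 arrays (5.00, 5.47 and 5.84) and was 2.94 and 2.95 on arrays 2 and 4, against 2.14 to 4.01 in the controls. The remaining one, ENSSSCT00000013101, whose probe is printed above, was 4.03, 3.05, 4.89, 3.54 and 5.29 against 2.26 to 3.53 in the controls (1.05, SE 0.38, adjusted p = 0.22). The COL6A3 identifier AK237231 differed by 0.66 (SE 0.29, adjusted p = 0.35). COL4A6, a basement membrane chain, was the only member whose 5 WI-CMJ arrays (5.68 to 5.99) all exceeded the 5 controls (5.33 to 5.57), which 3.90% of all identifiers showed in either direction. Its difference of 0.38 (SE 0.10) had an adjusted p of 0.0838.

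Among the fibril-forming chains, COL1A2, a chain of type I collagen, was 10.7, 10.2, 11.4, 9.61 and 11.9 (NM_001243655) on the WI-CMJ arrays and 9.73, 9.35, 8.98, 10.01 and 10.4 on the Ctl-CMJ arrays. Arrays 1, 3 and 5 were again above all controls. The difference was 1.07 (SE 0.38, adjusted p = 0.21). In C it was 9.67, 9.58, 9.69, 9.37 and 9.18 on the Ctl arrays and 9.16, 9.31, 9.53, 9.20 and 9.06 on the WI arrays, which overlap (-0.25, SE 0.25, adjusted p = 1.00). The dimmer COL1A2 identifier, AK347299, has a single probe and was 5.80 to 6.63 after WI, against 5.21 to 6.54 in the controls (0.31, SE 0.32, adjusted p = 0.78). COL5A1, a chain that limits fibril diameter, differed by 0.63 (SE 0.16, adjusted p = 0.0813). An identifier outside the rule, ENSSSCT00000019139, has no symbol in the array files but is listed as COL1A1 by the study. It was 8.99, 8.94, 10.2, 8.40 and 10.96 on the WI-CMJ arrays and 6.71 to 8.60 on the Ctl-CMJ arrays, a difference of 1.89 (SE 0.42, adjusted p = 0.0420). It no longer passed when 6 of the 10 arrays were left out 1 at a time, with 75th percentile scaling (adjusted p = 0.0524), with normexp (0.0596) and with only these 10 arrays fitted (0.13).

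None of the noncollagenous members other than BGN passed the test. SPARC, a collagen-binding protein of the matrix, was 10.6, 10.9, 11.3, 10.7 and 11.7 on the WI-CMJ arrays and 9.92 to 10.7 on the Ctl-CMJ arrays (0.76, SE 0.37, adjusted p = 0.43). TIMP1, an inhibitor of matrix metalloproteinases, differed by 0.48 (SE 0.12, adjusted p = 0.0752). MMP2, a gelatinase, differed by 0.54 (SE 0.25, adjusted p = 0.38). DCN, decorin, a fibroblast marker, was 11.2, 10.9, 10.7, 11.3 and 11.6 (NM_213920) on the Ctl-CMJ arrays and 11.4, 11.3, 11.6, 10.9 and 11.8 on the WI-CMJ arrays, a difference of 0.26 (adjusted p = 0.76) between groups that overlap. In C, DCN was 10.9, 10.9, 10.9, 10.8 and 10.95 on the Ctl arrays and 10.7, 10.9, 10.8, 10.8 and 10.6 on the WI arrays (-0.14, adjusted p = 1.00). The second DCN identifier, AK397441, differed by 0.29 in CMJ (adjusted p = 0.68). Neither FN1 identifier reached 0.25, and LOX, lysyl oxidase, differed by 0.16 (adjusted p = 0.86). COL7A1 at -0.11 and COL17A1, a transmembrane collagen of epithelia, at -0.05 were the 2 members with a negative value.

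Markers of fat and of smooth muscle moved with the same arrays. ADIPOQ, adiponectin, a hormone made by fat cells, was at 6.23, 7.05 and 7.53 (identifier EF601160) on WI-CMJ arrays 1, 3 and 5. On the other 37 arrays, including WI-CMJ arrays 2 and 4, it was 0.36 to 1.12 and not well above background. A second identifier, JX092267, showed the same 3 arrays at 5.72 to 7.20 and the others at 1.30 or less, and the third, NM_214370, was 3.31, 3.88 and 4.49 on them against 1.58 to 2.21 on the Ctl-CMJ arrays.

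The rest of the fat list was mixed. Of its 7 genes 6 were measured, with 9 identifiers, and their mean level was 3.65 to 3.94 on the Ctl-CMJ arrays and 3.76 to 6.05 on the WI-CMJ arrays. FABP4, a fatty acid carrier of fat cells and of capillary endothelium, was 8.11, 8.37 and 8.67 on arrays 1, 3 and 5 and 7.26 to 7.68 in the controls. PLIN1, the coat protein of fat droplets, was not well above background on any CMJ array of either group, and LEP, leptin, was 3.75 to 4.22 after WI and 3.93 to 4.22 in the controls.

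CNN1, calponin of smooth muscle, was 8.29, 7.31, 9.39, 6.93 and 9.99 on the WI-CMJ arrays and 6.34 to 7.02 on the Ctl-CMJ arrays. The mean level of the smooth muscle and pericyte list, of whose 8 genes 5 were measured, was 5.68 to 6.45 in Ctl-CMJ and 6.29 to 7.55 in WI-CMJ. In tissue samples, more cells of a type and more RNA per cell cannot be told apart. HBB, a globin of red blood cells, differed by 1.59 after WI in CMJ (SE 0.91, adjusted p = 0.53) and by 2.59 in C (SE 1.06, adjusted p = 0.93). The part of fat, vessel wall or blood in the sampled piece in these results was not tested.

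**Figure D3:**
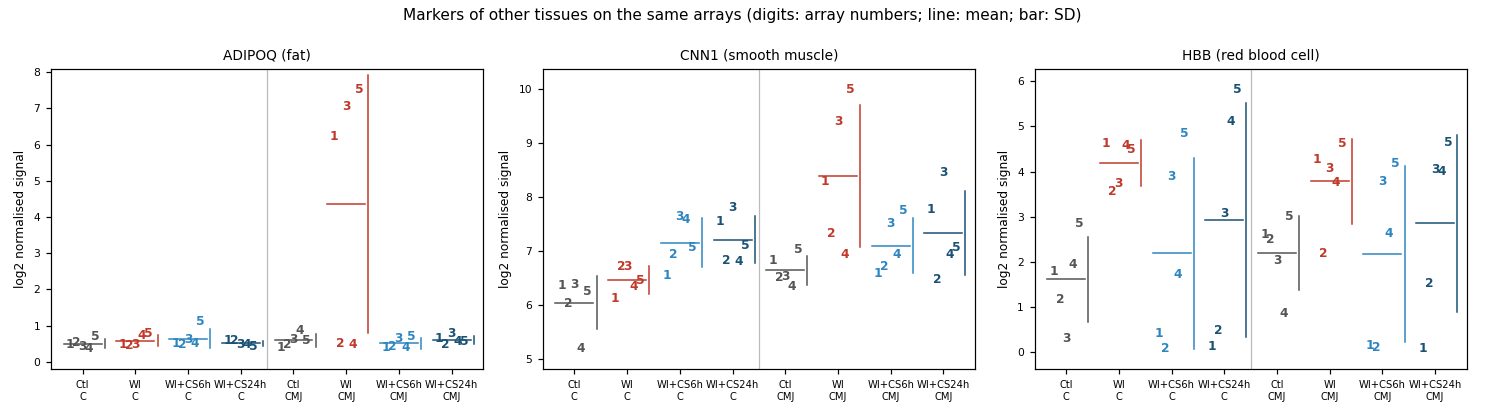
Log2 intensity of ADIPOQ (fat cells), CNN1 (smooth muscle) and HBB (red blood cells) in the 8 groups, 1 point per array. ADIPOQ exceeds 6 on WI-CMJ arrays 1, 3 and 5 and is 1.12 or less on all 37 others, and within WI-CMJ the CNN1 level is highest on the same arrays.

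The values of the members after WI in CMJ were therefore computed with and without these 3 arrays, a setting chosen after the data were seen that leaves 2 WI-CMJ arrays. Without them, COL6A2 was still called (1.36, limma adjusted p = 0.0371), 0.248% of all identifiers were (89 of 35938), and the member median fell to 0.19 with 27 of 35 positive. BGN was 1.25 higher but no longer called (adjusted p = 0.22). COL8A1 EV864657 came to 0.34 (adjusted p = 0.92), COL1A2 NM_001243655 to 0.20 and ENSSSCT00000019139 to 1.06 (adjusted p = 0.50). DCN NM_213920 turned from 0.26 to -0.067. With all arrays, the differences of COL6A2 and BGN were 1.45 and 1.30. COL8A1 EV864657 and COL1A2 NM_001243655 were highest on the 3 arrays left out. Their smaller differences in this fit were thus fixed by the choice of arrays, and no conclusion is drawn from them.

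In C after WI, 0 of 35 members were called, and 0.0946% of all identifiers were (34 of 35939). An unadjusted p under 0.05 was found for 4 members, namely TIMP1, BGN, COL6A2 and COL5A1, all higher, and for 4.89% of all identifiers. The member median was -0.03, with values from -0.31 to 0.61. COL6A2 was 3.41, 5.02, 5.00, 4.18 and 4.37 on the WI-C arrays and 3.69 to 3.94 on the Ctl-C arrays. WI-C array 1 was under all controls and the other 4 were above them, so that the difference of 0.58 (SE 0.22) had an adjusted p of 0.83. Without WI-C array 1 it was called (0.83, limma adjusted p = 0.0352). BGN was likewise lower on array 1 (4.66) than on arrays 2 to 5 (5.29 to 5.84), against 4.55 to 5.11 in the controls.

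Whether WI acted differently on the tissues was tested as an interaction in a fit of all 40 arrays. The fit treats the arrays as separate samples, although by the labels they come from 15 kidneys. The same holds for the comparison of CMJ with C in control kidneys. No member and none of all 35934 identifiers was called (0%). An unadjusted p under 0.05 was found for 11 members, all with a larger response in CMJ, and for 1.98% of all identifiers, and the member median of the difference was 0.43. The largest differences of response were those of COL8A1 EV864657 (1.94, limma adjusted p = 1.00) and COL1A2 (NM_001243655, 1.31, limma adjusted p = 1.00) among the members well above background on all arrays. Without the 3 ADIPOQ arrays, 1 member and 1.66% of all identifiers had an unadjusted p under 0.05, the member median was 0.18, COL8A1 EV864657 was 0.62 and COL1A2 NM_001243655 was 0.45. A difference between the tissues was therefore not shown, in spite of the calls in CMJ and none in C.

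**Figure D4:**
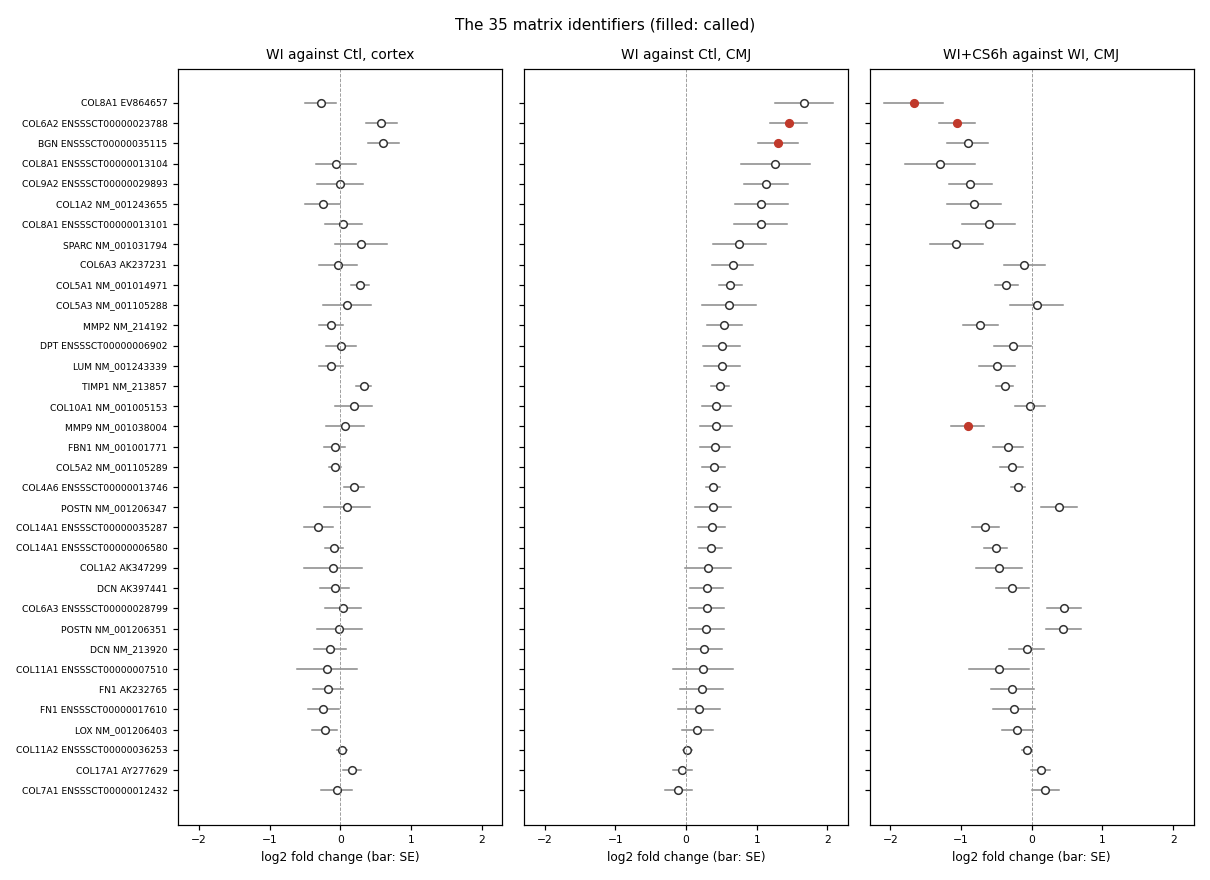
Log2 fold change with SE for each of the 35 members in 3 comparisons, WI against Ctl in C, WI against Ctl in CMJ, and WI+CS6h against WI in CMJ. In CMJ 33 of 35 values are positive after WI, and 29 of 35 are negative after 6 h of storage against WI, and both comparisons use the same WI-CMJ arrays.

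Against WI, COL6A2 was called lower in CMJ at both storage times, and COL8A1 and the gelatinase MMP9 were called lower at 6 h. After 6 h, 3 of 35 members were called, all lower, and 2.78% of all identifiers were called (1000 of 35938), 1.41% lower. The member median was -0.33 and 29 of 35 values were negative, where 51.1% of all identifiers had a positive one. After 24 h, COL6A2 alone was called, lower, with 2.85% of all identifiers called (1024 of 35938), 1.61% lower. The member median was then -0.26 and 27 of 35 values were negative, where 54.7% of all identifiers had a positive one. These comparisons share the WI-CMJ arrays with the one above, so that a high WI array enters all of them. COL8A1 EV864657 (-1.47) and MMP9 (-0.80) had lower values after 24 h too. Both were called there with a filter on dim probes (limma adjusted p = 0.0296 and 0.0332).

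COL6A2 was 4.10 to 4.70 on the WI+CS6h-CMJ arrays and 4.12 to 4.81 on the WI+CS24h-CMJ arrays. Both groups lay under WI arrays 2 to 5 and overlapped with array 1. The differences from WI were -1.06 (SE 0.26, adjusted p = 0.0270) and -0.93 (adjusted p = 0.0490). The 6 h call was lost when 6 of the 10 arrays were left out 1 at a time and the 24 h call when 9 were, and the latter also with the deposited matrix (-0.53, adjusted p = 0.0502), with 75th percentile scaling (adjusted p = 0.0775) and with scan day as a term (adjusted p = 0.0552). With normexp the differences were -0.23 and -0.21, and neither was called. On scan day 1 the differences were -0.48 and -0.52, and on day 2 -1.75 and -1.54.

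COL8A1 EV864657 was 4.87, 4.92, 5.31, 4.94 and 5.45 on the WI+CS6h-CMJ arrays, all of them within 4.63 to 5.58, the range of the controls. The difference from WI was -1.67 (SE 0.41, adjusted p = 0.0293), and both of its probes gave it, with -1.73 and -1.62. The call was lost when 7 of the 10 arrays were left out 1 at a time, with differences between -2.01 and -1.34. On scan days 1 and 2 it was -0.82 and -2.87. Without the 3 ADIPOQ arrays it was -0.35 (adjusted p = 0.74).

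MMP9, a gelatinase carried by neutrophils and macrophages, was 6.90, 6.57, 7.25, 6.47 and 7.53 on the WI-CMJ arrays and 5.81, 5.49, 6.57, 6.59 and 5.72 after 6 h. The groups overlap through arrays 3 and 4 of the stored kidneys. The mean level of the leukocyte list was 5.06 to 5.55 on the WI-CMJ arrays and 4.24 to 5.18 on the stored ones, and its part in the MMP9 difference was not tested. The difference was -0.91 (SE 0.23, adjusted p = 0.0321), and it was -1.04 and -1.06 within scan days 1 and 2, without passing the test there. The call was lost when 5 of the 10 arrays were left out 1 at a time, with 75th percentile scaling (adjusted p = 0.0512) and with the deposited matrix, where the difference was -0.30. It was also lost with normexp (-0.18, adjusted p = 0.0943) and with only these 10 arrays fitted (adjusted p = 0.12). Without the 3 ADIPOQ arrays the difference was -0.48 (adjusted p = 0.59). Its 2 probes disagreed in size, as the dimmer one gave -1.41 and the brighter one -0.41, and with the brighter probe alone the gene was not called (adjusted p = 0.0738).

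Without the 3 ADIPOQ arrays, 0 of 35 members were called against WI after 6 h or after 24 h, where 0.779% and 0.821% of all identifiers were called (280 and 295 of 35938), and the member medians were -0.05 and -0.00. At an unadjusted p under 0.05 there were then 2 and 3 members, and 10.7% and 11.2% of all identifiers. COL6A2 was -0.97 and -0.84 there, with 2 WI-CMJ arrays left, and was no longer called (limma adjusted p = 0.11 and 0.16).

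In cold-stored CMJ against Ctl, calls were no more frequent among the members than among all identifiers. After 6 h, 0 of 35 members were called, with 3.19% of all identifiers called (1148 of 35938) and an unadjusted p under 0.05 for 4 members and for 16.0% of all identifiers. After 24 h, 1 of 35 was called, with 3.65% of all identifiers called (1313 of 35938), 1.35% higher. This was COL6A3 ENSSSCT00000028799, another type VI chain, which was 3.38, 3.35, 2.99, 3.66 and 3.71 on the Ctl-CMJ arrays and 4.95, 4.70, 4.50, 3.60 and 3.71 after 24 h. Arrays 1 to 3 were above all controls and arrays 4 and 5 were not. This identifier also differed by label number among the cold-stored arrays (limma adjusted p = 0.0020). Its mean over the 40 arrays was 3.78, and its dimmest probes averaged 0.83 and 0.99. The brighter COL6A3 identifier, AK237231 (mean 7.95), was not called. For ENSSSCT00000028799 the difference was 0.87 (SE 0.24, adjusted p = 0.0439). The call was lost when 7 of the 10 arrays were left out 1 at a time and with 75th percentile scaling (0.85, adjusted p = 0.0662). It was 0.21 with the deposited matrix (adjusted p = 0.19) and 0.19 with normexp (adjusted p = 0.0883), not called in either. Within scan days 1 and 2 it was 0.96 and 0.81. POSTN, periostin, a matricellular protein of activated fibroblasts, came next, with 0.87 for NM_001206347 (adjusted p = 0.0569) and 0.75 for NM_001206351 (adjusted p = 0.0929).

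In C, no member was called in any comparison with cold storage. Against Ctl, 4.02% of all identifiers were called after 6 h (1445 of 35939) and 2.50% after 24 h (900 of 35939). Against WI these shares were 1.93% and 1.20%. An unadjusted p under 0.05 was found for 9, 7, 5 and 3 members in these 4 comparisons, and for 21.4%, 16.2%, 15.0% and 11.4% of all identifiers. The member medians were 0.20, 0.14, 0.17 and 0.14. COL14A1 ENSSSCT00000035287, a collagen on the fibril surface, had lower values, from 9.53 to 10.4 on the Ctl-C arrays to 9.01 to 9.60 after 24 h (-0.73, SE 0.20, adjusted p = 0.0575). This COL14A1 difference was called under 6 other settings, namely a filter on dim probes (-0.73, limma adjusted p = 0.0370), normalization within each group, the deposited matrix, the replicate block, slide as a random block and scan day as a term, with adjusted p from 0.0284 to 0.0474. COL6A3 ENSSSCT00000028799 was 0.74 higher after 6 h (adjusted p = 0.0978), with 5 arrays at 3.52 to 4.56 that were all above the 5 controls at 3.11 to 3.50, and the groups did not overlap for 5.23% of all identifiers.

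Between 24 h and 6 h of storage, no member was called in either tissue. Of all identifiers 0% were called in C and 0.00278%, which is 1 identifier, in CMJ. No member had an unadjusted p under 0.05 in either, where 3.11% and 3.44% of all identifiers had one. The largest member difference was -0.67 in C and 0.26 in CMJ. The same kidneys were sampled at both times, and the fit treats the arrays as separate samples.

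Among the cold-stored arrays, the matrix genes SPARC, COL5A3, COL11A1 and DPT had the lowest adjusted p of the members between label numbers. The cold-stored samples are numbered 1 to 5 in each of the 4 groups, and samples of the same number deviated together between 6 h and 24 h in CMJ, with correlations over all identifiers of 0.33 to 0.61. Of the 6 pairs of cold-stored groups, 4 had every same-number correlation over 0.1. The exceptions were 6 h and 24 h in C, where the lowest was -0.31, and 6 h in C with 24 h in CMJ, where it was -0.10, and the labels do not state that a number marks a kidney. A test of the number over the 20 cold-stored arrays, with a term for each group, was added after the data were seen. It gave 12 of 35 members (34.3%) with a limma adjusted p under 0.05, and 19.8% of all identifiers (7070 of 35767).

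SPARC came first (adjusted p = 2.61e-07). It was 10.6 to 10.9 on the 4 arrays of number 1, 10.7 to 10.9 on those of number 2, 8.93 to 9.61 and 8.89 to 9.25 on those of numbers 3 and 4, and 9.90 to 10.1 on those of number 5. The arrays of numbers 3 and 4 were below all 20 Ctl and WI arrays, which span 9.92 to 11.7. All 7 probes of SPARC, the printed one among them, had this order, with spreads of 1.16 to 2.13 between numbers.

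COL5A3, a chain of type V collagen with a single probe here, was 6.21 to 6.41 on the 4 arrays of number 5 and 4.22 to 4.94 on the 16 others (adjusted p = 1.13e-05). The Ctl and WI arrays span 3.99 to 5.40. Both tissues and both storage times of number 5 thus stood above every other array of the series. The list of leukocyte markers, of whose 8 genes 5 were measured, had a median of -0.27, -1.06, -1.18 and -0.90 relative to the controls on these 4 arrays, and its part in this was not tested.

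COL11A1, a cartilage fibril chain, was 3.27 to 4.05 and 3.61 to 3.86 on the arrays of numbers 3 and 4 and 1.28 to 2.08 on those of number 5 (adjusted p = 5.34e-05). It was near the detection limit there. Of its 4 probes, 3 had a spread of over 2 and up to 3.16 between numbers, and the probe printed above, which lies in the glycine repeat, had 0.60. DPT, dermatopontin, a decorin-binding protein, ran like SPARC (adjusted p = 8.20e-05), at 7.97 to 8.44 on number 3 and 8.91 to 9.45 on number 2.

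**Figure D5:**
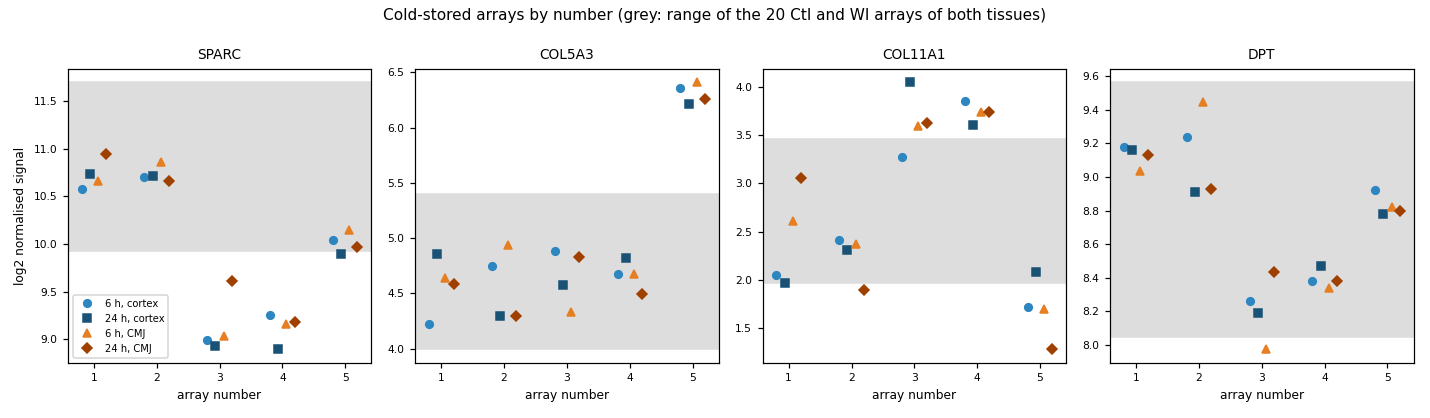
Log2 intensity of SPARC, COL5A3, COL11A1 and DPT on the 20 cold-stored arrays by label number, with tissue and storage time marked, and in grey the range of the 20 Ctl and WI arrays. SPARC on numbers 3 and 4, COL5A3 on number 5 and COL11A1 on number 4 lie outside the grey range, and COL11A1 on number 1 spreads from 1.97 to 3.05 and overlaps with numbers 2 and 5.

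The other members that differed by number were both identifiers of COL6A3 and of DCN, COL7A1, MMP9, LOX and COL8A1 ENSSSCT00000013101. DCN and COL6A3 were highest on number 1, and DCN was lowest on number 5. MMP9 again rested on its dimmer probe, which had a spread of 1.78 between numbers where the brighter one had 0.27. The red cell marker HBB went with the numbers too (adjusted p = 3.37e-05), at 0.07 to 1.52 on the arrays of numbers 1 and 2, none well above background, and at 1.72 to 5.82 on the others. Its part in the differences between numbers was not tested.

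Matrix genes outside the rule were called as well, among them fibromodulin, CTGF and the fibronectin receptor chain ITGA5. Of 41 further glycoproteins and proteoglycans 20 were measured, with 21 identifiers. After WI in CMJ, 1 of the 21 was called (0.687% of all identifiers), VTN, the plasma adhesion protein vitronectin, which rose by 0.60 (SE 0.10, adjusted p = 0.0091), and their median was 0.37. Against WI in CMJ, 2 of the 21 were called after 6 h and 3 after 24 h, all lower, where 2.78% and 2.85% of all identifiers were called. FMOD, fibromodulin, a collagen-binding proteoglycan, fell by 1.16 and by 1.27 (adjusted p = 0.0041 and 0.0021). CTGF, a matricellular growth factor of fibrosis, fell by 0.75 and by 0.68 (adjusted p = 0.0197 and 0.0328), and VTN fell by 0.51 after 24 h (adjusted p = 0.0074). With the 3 ADIPOQ arrays left out, FMOD was still called at both times (-1.37 and -1.48, adjusted p = 0.0384 and 0.0280), while CTGF (-0.62 and -0.55, adjusted p = 0.33 and 0.41) and VTN (-0.54 after 24 h, adjusted p = 0.0787, and 0.62 for WI against Ctl, adjusted p = 0.0771) were not. The median after WI was then 0.10.

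In C, 2 of the 21 were called higher in each of the 4 comparisons of cold storage with Ctl or WI, where 1.20% to 4.02% of all identifiers were called. Against Ctl, CYR61, a relative of CTGF, rose by 1.59 after 6 h and by 1.45 after 24 h (adjusted p = 0.0018 and 0.0042). The others were OGN, osteoglycin, which rose by 0.61 after 6 h (adjusted p = 0.0082), and NOV, another relative, which rose by 0.71 after 24 h (adjusted p = 0.0497). Against WI, OGN rose by 0.76 and by 0.61 (adjusted p = 0.0030 and 0.0162), and ACAN, the cartilage proteoglycan aggrecan, rose by 0.76 and by 0.80 (adjusted p = 0.0396 and 0.0391). Cell type markers were also called higher in C against Ctl. CNN1 rose by 1.11 after 6 h and by 1.17 after 24 h (limma adjusted p = 0.0189 and 0.0174). LPL of the fat list rose by 1.06 after 6 h, and the urothelium markers UPK1B (NM_001123212) and UPK3A by 0.92 after 6 h and by 1.09 after 24 h. The part of such cells in the rises of matrix genes in C was not tested.

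Genes that make and crosslink collagen were measured for 11 of 23, with 12 identifiers. None was called after WI in CMJ (0.687% of all identifiers), and 3 had an unadjusted p under 0.05 (12.3% of all identifiers), with a median of 0.11. PCOLCE2, an enhancer of procollagen cleavage, fell against WI by 0.73 after 6 h and by 0.71 after 24 h in CMJ (adjusted p = 0.0417 and 0.0472). Of 15 noncollagenous basement membrane genes 3 were measured and none was called in the 10 comparisons with Ctl or WI within a tissue. In these, 0.0946% to 4.02% of all identifiers were called, so that no call is expected among so few genes. Of 24 proteases and inhibitors 18 were measured. ADAMTS1, a protease of proteoglycans, rose in C by 0.52 at both storage times against Ctl (adjusted p = 0.0341 and 0.0427), and TIMP2 fell by 0.58 after 6 h against WI in CMJ (adjusted p = 0.0469). When the 3 ADIPOQ arrays were left out, neither PCOLCE2 (-0.66 and -0.64, adjusted p = 0.38 and 0.39) nor TIMP2 (-0.51, adjusted p = 0.30) was called, and the median of the collagen-making genes after WI was 0.21.

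Of 15 receptors of collagen and fibronectin 12 were measured, with 18 identifiers. ITGA5, the fibronectin receptor chain, rose by 0.64 after WI in CMJ (SE 0.14, adjusted p = 0.0406). It fell against WI by 0.65 and by 0.63 after 6 h and 24 h in CMJ (adjusted p = 0.0143 and 0.0164) and by 0.50 and by 0.59 in C (adjusted p = 0.0408 and 0.0219). DDR1, a collagen receptor kinase, fell by 0.53 after 6 h against WI in CMJ (adjusted p = 0.0266). In the fit without the 3 ADIPOQ arrays ITGA5 was still called against WI at both times in CMJ (-0.73 and -0.71, adjusted p = 0.0263 and 0.0308) but not after WI (0.72, adjusted p = 0.0524), nor was DDR1 (-0.66, adjusted p = 0.0764).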

How the data were processed

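The authors deposited 1 Agilent Feature Extraction 11.5.1.1 file per array, and its processed intensity (background-subtracted, detrended) was not normalized between arrays. The deposited log2 matrix, which the authors quantile normalized with limma in R 2.15.2, was used only as an alternative. Here the intensity was taken to log2, outlier spots left out, all 40 arrays quantile normalized and spots averaged by identifier. limma 3.58.1 in R 4.3.3 (statmod 1.5.0 and the package data.table, version 1.17.8) was fitted per tissue over 20 arrays with 1 term per group, with Benjamini-Hochberg adjustment over all identifiers. Groups came from the labels. The number of arrays limits the precision. Members called are given array by array in the comparison with the lowest adjusted p, and the fibroblast markers COL1A2 and DCN for Ctl and WI in both tissues, and of other lists up to 4 called genes by lowest p. Further members, and CTGF, ACAN and NOV, were named after their values were seen. The members and the gene lists were chosen with earlier results of these data known. The fit was tested on simulated data. Alternatives were scaling, background correction, a filter on dim probes, probe choice, slide, scan day, the replicate block and leaving out arrays. Pairing was checked by correlating deviations of same-numbered arrays, and the numbers paired cold-stored groups only in part, so that the block stayed an alternative.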

Additional observations from a re-analysis of the deposited data

Results flagged for a closer look

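Single arrays that stood apart from the other 4 of their group were looked for by Dixon's test at its 95% critical value (0.71 for 5 arrays) in 104 groups of arrays, for 12 identifiers whose values carry the report and for the median over the members. It marked 5 of them, and chance marks about 1 in 20 groups. COL11A1 was at 2.28 on Ctl-C array 2, under the 4 others. DPT was at 8.12 on Ctl-C array 4, under the 4 others. COL5A3 was at 4.51 on WI-C array 1, under the 4 others, and at 6.26 on WI+CS24h-CMJ array 5, above the 4 others. COL8A1 EV864657 was at 4.23 on WI+CS6h-C array 5, under the 4 others. The COL5A3 array belongs to number 5, on which the gene was high in all 4 cold-stored groups. The COL8A1 array is also of number 5, and COL8A1 EV864657 was 4.23 to 5.45 on the 4 cold-stored arrays of that number.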

How the results depend on the processing

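The number of the 35 members called depended on the setting, while the directions of the called members held except where stated. For WI against Ctl in CMJ (2 called), 75th percentile scaling gave 1, normexp 0, a fit of only the groups compared 0, scan day 1 alone 0 (1 of all identifiers called), scan day 2 alone, whose WI-CMJ arrays are 2 of those with ADIPOQ, 7 (350), leaving out the 3 arrays with ADIPOQ 1, and leaving out 1 array at a time 1 to 4. In that comparison DCN NM_213920 reversed to -0.067 without the 3 arrays with ADIPOQ; the cause was not tested. For WI+CS6h against WI in CMJ (3 called), normexp gave 1, only the groups compared 0, scan day 1 0 (5), scan day 2 13 (1200), without the arrays with ADIPOQ 0, and leaving out 1 array 0 to 5, with 0 without WI-CMJ array 3, WI-CMJ array 5 or WI+CS6h-CMJ array 1, and 1 without WI+CS6h-CMJ array 2, 3 or 4. For WI+CS24h against WI in CMJ (1 called), 75th percentile scaling, normexp, scan day 1 (16), only the groups compared and no arrays with ADIPOQ gave 0, the replicate block 2, quantile normalization within each group 3, scan day 2 3 (385), slide as a random block 3, a filter on dim probes 4, and leaving out 1 array 0 to 2. For WI+CS24h against Ctl in CMJ (1 called), 75th percentile scaling, normexp, the deposited matrix, both scan days and only the groups compared gave 0, the dim filter and slide 2, normalization within each group 3, and leaving out 1 array 0 to 3.

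For the comparisons with 0 members called, WI+CS24h against Ctl in C gave 1, COL14A1, under normalization within each group, the dim filter, the deposited matrix, the replicate block, slide as a random block and scan day as a term. Normalization within each group gave 1 for WI+CS6h against WI in C and 1 for WI+CS6h against Ctl in CMJ, and scan day 2 gave 1, COL8A1, for the interaction with WI. Leaving out 1 array gave 0 to 1 for WI against Ctl in C, for WI+CS6h and WI+CS24h against Ctl in C and for WI+CS6h against Ctl in CMJ. The number among cold-stored arrays (12 members) gave 10 to 13 in all settings run. The replicate block changed no count other than those named, except for WI against Ctl in CMJ, where it gave 3. Under normexp the offset of 50 shrinks differences of dim probes, so that COL6A2 (0.27) and BGN (0.34) fell short of 0.5 there. With 5 arrays a group and members such as COL9A2, COL11A2 and COL10A1 at or near background, differences of that size in dim collagens were not resolved.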
